A study of Drosophila melanogaster with 10 samples.

Results

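The yolk protein genes Yp1, Yp2 and Yp3 and the yolk receptor gene yl (yolkless) were followed in adult females of Drosophila melanogaster, the fruit fly, from which RNA of the whole body was taken. They were found by the gene symbol that the array's annotation gives to each probe set, and each of the 4 genes had 1 probe set of its own, out of 10844 genes named by single-gene probe sets and 14010 probe sets in all. There were 5 unselected control lines and 5 lines that had undergone selection for heat resistance, each represented by total RNA on 1 array. The series design calls the lines independent, so the spread within a group is a spread between lines. The flies' age, mating status and handling were not used here. Lines are numbered 1 to 5 within each group.

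Yolk proteins are the main nutrient store of the fly egg. The fat body and the follicle cells around the oocyte make them in adult females, and those from the fat body travel through the hemolymph to the ovary. The oocyte takes them up by clathrin-mediated endocytosis through the receptor that yl encodes, a member of the low-density lipoprotein receptor family made in the germline. The 3 yolk proteins belong to the lipase family of proteins. In the fat body their genes are controlled by the sex determination factor Doublesex, and ecdysone and juvenile hormone take part in their regulation.

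Levels are log2(intensity + 1) of the deposited array intensities, and a difference is the mean of the selected lines minus that of the control lines. Probe sets bind with different strength, so a level is compared between lines for a given gene and not between genes. The 3 yolk protein genes are related in sequence, and whether the probe set of one also binds transcripts of another was not tested, which limits what the ratios and correlations among them show. Across the table, 10961 features were bright enough to be compared, limma called 0 of them at an adjusted p under 0.05, and 1043 (9.52%) had an unadjusted p under 0.05. As a check of the label, the germline markers osk and vas averaged 12.11 and 9.88 and the follicle cell markers Vm34Ca and Cp38 averaged 14.45 and 13.36. The dimmest of 4 measured germline markers was grk at 5.44, and the dimmest of 4 measured follicle cell markers was Vm26Aa at 12.04. The mean levels of 6 male markers ran from 2.48 to 4.26, where single values of probe sets for other organisms reached 3.64. Of the 6, 5 averaged above that value. The 3' excess, the mean log2 signal at the 3' end minus that at the 5' end of the actin, GAPDH and eIF-4a control transcripts, is larger in degraded RNA. It was 2.27 in control line 1 and 2.76 in selected line 1. In lines 2 to 5 it ran from 1.72 to 1.93 in the control lines and from 1.43 to 1.74 in the selected lines. In whole flies, fewer cells of a type and less RNA per cell cannot be told apart.

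Yp3 and Yp2 had lower mean levels in the selected lines, with changes of -20.9% and -17.7%, while Yp1 differed by -7.07% and yl by 1.44%. None of the 4 passed the test over all features. A lower mean was found for 3 of the 4 genes and for 46.3% of all features. In both Yp3 and Yp2, selected lines 1 to 4 lay below every control line and selected line 5 lay among or above the control lines.

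**Figure D1:**
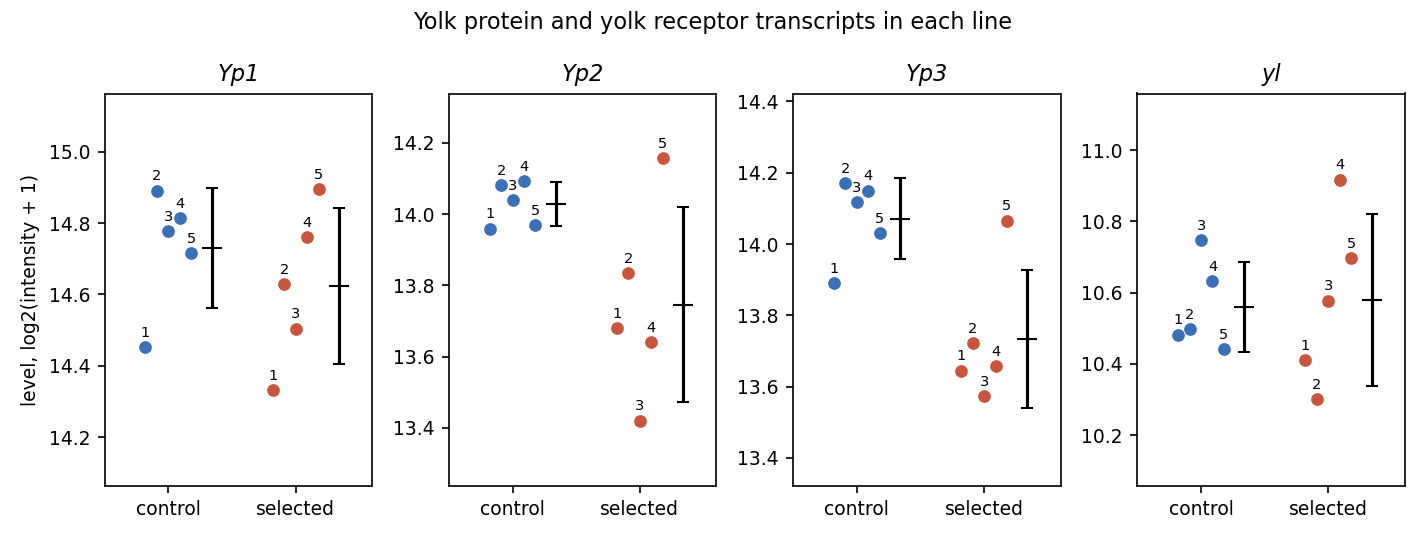
Level of each transcript, log2(intensity + 1), in the 5 control and 5 selected lines, with line numbers beside the points, and the mean with its SD (n = 5) at the right of each group. The vertical axes start at different values but cover the same range, and for Yp2 and Yp3 selected line 5 stands with the control lines.

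The yolk protein gene Yp3 lies apart from the other yolk protein genes on the X chromosome. Its level in the control lines was 13.89, 14.17, 14.12, 14.15 and 14.03 in lines 1 to 5. In the selected lines it was 13.65, 13.72, 13.57, 13.66 and 14.07. The first 4 selected lines thus sat within a narrow band under all control lines, and line 5 lay above control lines 1 and 5, so the groups overlapped through that line alone. The control mean was 14.07 ± 0.11 and the selected mean 13.73 ± 0.19 (SD, n = 5 each). The difference was -0.34 ± 0.098 (SE), a fold of 0.791, with a 95% interval of -0.55 to -0.12 from limma. Its unadjusted p from limma was 0.00525 and its adjusted p 0.306, so Yp3 was not called over all genes.

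Yp2 lies beside Yp1 with no annotated gene between them. Its control levels were 13.96, 14.08, 14.04, 14.09 and 13.97 in lines 1 to 5, a close group with an SD of 0.062. The selected levels were 13.68, 13.83, 13.42, 13.64 and 14.16. Selected line 3 was the lowest of all 10 lines and selected line 5 the highest. The means were 14.03 ± 0.062 and 13.75 ± 0.27 (SD, n = 5 each), a difference of -0.28 ± 0.12 (SE) with a 95% interval of -0.54 to -0.026. Its unadjusted p from limma was 0.0339 and its adjusted p 0.484.

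The background for these values is that 435 of 10961 features (3.97%) had an unadjusted p under 0.05 with a lower mean in the selected lines, and 2 of the 4 genes, Yp2 and Yp3, were among them. At least 4 selected lines lay below every control line for 3.3% of features, and again Yp2 and Yp3 were the 2 of 4. With each array centred on its median level, the split of features at an unadjusted p under 0.05 moved from 435 lower and 608 higher (5.55%) to 850 lower and 400 higher, and Yp3 and Yp2 differed by -0.41 and -0.35. Without selected line 5 the difference of Yp2 was -0.38 (unadjusted p = 0.00139, adjusted p = 0.188 from limma). That of Yp3 was -0.42 (unadjusted p = 0.000281, adjusted p = 0.180 from limma). Selected line 5 was the highest selected line in both genes, so leaving it out enlarges the difference and is no support for it. The unadjusted p of Yp3 stayed under 0.05 with any 1 line left out. That of Yp2 did so in 4 of 10 fits: it lay above 0.05 without control lines 2, 3 or 4 or selected lines 1, 3 or 4, with a difference of -0.20 without selected line 3.

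For Yp1, 1 selected line lay below every control line. Its control levels were 14.45, 14.89, 14.78, 14.81 and 14.72 in lines 1 to 5, and its selected levels were 14.33, 14.63, 14.50, 14.76 and 14.90. Line 1 was the lowest of its group in both groups, and selected line 5 was the highest of all lines. The means of 14.73 ± 0.17 and 14.62 ± 0.22 (SD, n = 5 each) differed by -0.11 ± 0.12 (SE, unadjusted p = 0.379 and adjusted p = 0.993 from limma). The 95% interval of -0.36 to 0.15 covers the estimates of both Yp2 and Yp3. Yp1 gave the brightest value of the table on 7 of 10 arrays, between 20617 and 30482 intensity units over all lines. The highest value of the whole table was 32744, and whether the Yp1 signal neared an upper limit was not tested.

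The receptor gene yl, which is expressed in the germline, had control levels of 10.48, 10.50, 10.75, 10.63 and 10.44 in lines 1 to 5. In the selected lines it was 10.41, 10.30, 10.58, 10.92 and 10.70. The lowest line of all was selected line 2 and the highest selected line 4, so the selected lines spanned the whole control range. The means were 10.56 ± 0.13 and 10.58 ± 0.24 (SD, n = 5 each), a difference of 0.021 ± 0.11 (SE, adjusted p = 0.999 from limma) with a 95% interval of -0.23 to 0.27. Its sign changed with the scaling of the arrays (-0.047 with arrays centred on their median) and with the lines left out, so no direction is given for it.

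The spread between lines was larger in the selected than in the control lines for each of the 4 genes. The SD of the selected lines was 4.41 times that of the control lines for Yp2, 1.91 times for yl, 1.69 times for Yp3 and 1.31 times for Yp1. A ratio at least as large was seen in 0.94%, 10.7%, 14.6% and 26.1% of all features in that order, where the median feature had a ratio of 0.93. For Yp2 the selected lines spanned from 13.42 in line 3 to 14.16 in line 5. These ratios were not tested.

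Taking the ratio of 2 transcripts within each array removes a factor shared by the whole array, but not effects that depend on intensity. The untested upper limit on the Yp1 signal also bears on its ratios. Across the 6 pairs, the ratio of Yp3 to Yp1 and that of yl to Yp3 had the smallest p for a difference between the groups, and neither passed after adjustment over the 6 pairs. The log2 level of Yp3 minus that of Yp1 ran from -0.72 to -0.56 in the control lines. In selected lines 1 to 5 it was -0.69, -0.91, -0.93, -1.10 and -0.83, so lines 2 to 5 lay below every control line. The ratio differed by -0.23 between the groups (two-sided exact permutation p = 0.0159, adjusted p = 0.0952, n = 5 each), where the smallest p the design can give is 0.00794. In selected line 5 Yp1 was at its highest of the 10 lines and Yp3 was level with its control mean, and the ratio lay below the control range.

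The log2 level of yl minus that of Yp3 ran from -3.67 to -3.37 in the control lines. It was -3.23, -3.42, -2.996, -2.74 and -3.37 in selected lines 1 to 5, above every control line in 4 of them, with line 2 inside the control range. The ratio differed by 0.36 between the groups (two-sided exact permutation p = 0.0317, adjusted p = 0.0952, n = 5 each). The ratio of yl to Yp2 differed by 0.30 (exact p = 0.119, adjusted p = 0.238) and that of yl to Yp1 by 0.13 (exact p = 0.310, adjusted p = 0.317). That of Yp2 to Yp1 differed by -0.18 (exact p = 0.206, adjusted p = 0.310). Between Yp2 and Yp3 the ratio differed by -0.058, within a range of -0.068 to 0.089 over the control lines (exact p = 0.317, adjusted p = 0.317). A p that misses the threshold does not show that these transcripts moved alike.

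**Figure D2:**
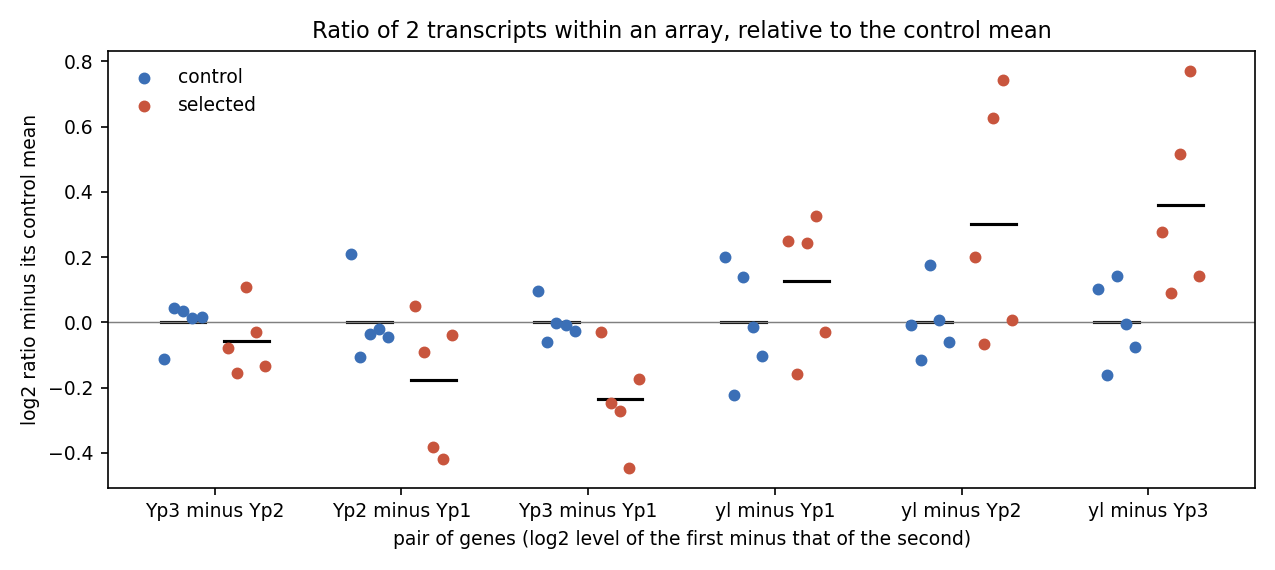
Log2 ratio of 2 transcripts within an array, minus the mean of that ratio over the control lines, for the 6 pairs of genes. Points are single lines in the order of their numbers and bars are group means. For Yp3 minus Yp1, 4 of 5 selected lines lie below all control lines, and for yl minus Yp3, 4 of 5 lie above them.

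Across the 10 lines Yp2 and Yp3 varied together, and the r of yl with either was near 0. In a family of 14 relations, the correlation of Yp2 with Yp3 had a Pearson r of 0.931 (permutation p = 3.00e-05, adjusted p = 0.000420) and a Spearman rho of 0.903 (permutation p = 0.000860, adjusted p = 0.00602). It was 0.922 without the lines farthest from the median of Yp2 (selected lines 3 and 4) and 0.902 with each group centred on its own mean, so it did not rest on the difference between the groups. Yp1 correlated with Yp3 at an r of 0.718 (permutation p = 0.0234, adjusted p = 0.0821) and a rho of 0.782 (permutation p = 0.0108, adjusted p = 0.0306). With Yp2 its r was 0.642 (permutation p = 0.0444, adjusted p = 0.104) and its rho 0.782 (permutation p = 0.0109, adjusted p = 0.0306). Without line 1 of both groups, the arrays with the largest 3' excess, these r were 0.797 (adjusted p = 0.0426) and 0.841 (adjusted p = 0.0339) in exact permutation tests over 8 lines.

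The receptor gene gave an r of 0.0028 with Yp2 (permutation p = 0.994), 0.108 with Yp3 (permutation p = 0.765) and 0.474 with Yp1 (permutation p = 0.167), with rho of 0.212 (p = 0.558), 0.248 (p = 0.493) and 0.588 (p = 0.0805) in that order. The adjusted p of these r was 0.292 or more. Without selected lines 3 and 4 the r of Yp2 with yl was 0.731. In selected line 4 yl was at its highest of the 10 lines while Yp2 stood at the second lowest and Yp3 at the third lowest. In selected line 5, Yp1, Yp2 and yl lay above the control mean and Yp3 was level with it at 14.07.

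**Figure D3:**
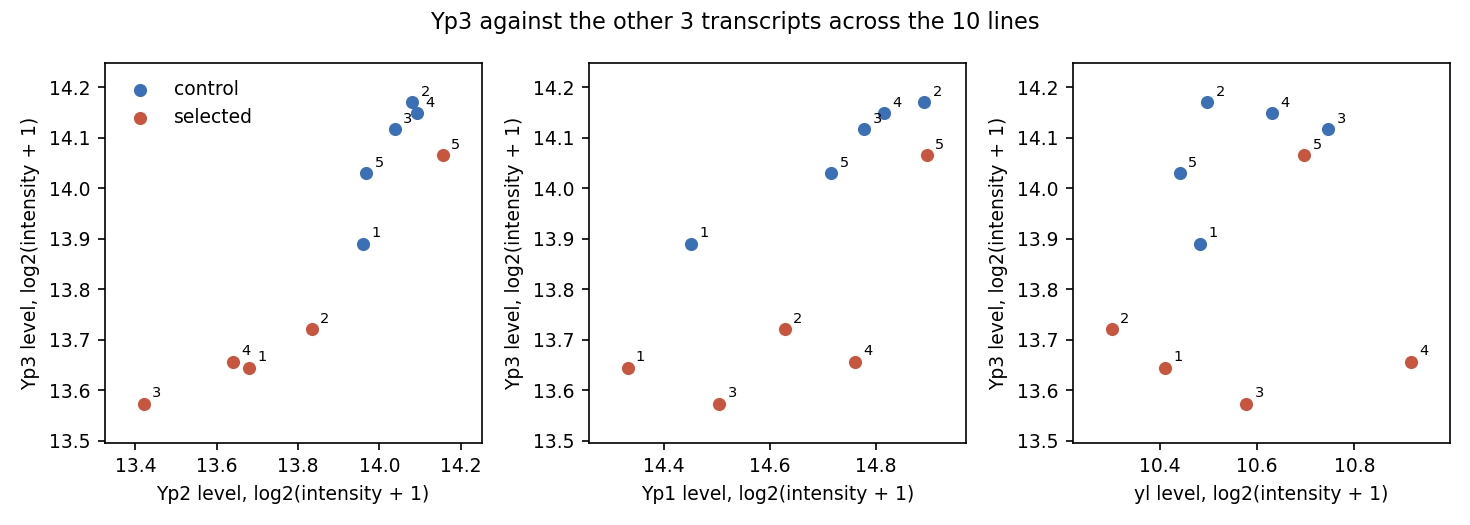
Level of Yp3 against that of Yp2, Yp1 and yl, log2(intensity + 1), with 1 point per line and its number. Yp3 follows Yp2 along the whole range (r = 0.931), follows Yp1 more loosely (r = 0.718) and shows no order with yl (r = 0.108).

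RNA quality was set against each gene. The r of the 3' excess was -0.663 with Yp1 (permutation p = 0.0323, adjusted p = 0.0906, rho = -0.248, p = 0.492), and it was 0.312 without line 1 of both groups, so the relation rested on those arrays. The r was -0.0084 with Yp2 (permutation p = 0.982, rho = 0.236, p = 0.517), -0.094 with Yp3 (permutation p = 0.812, rho = 0.212, p = 0.562) and -0.504 with yl (permutation p = 0.138, rho = -0.406, p = 0.247). Without line 1 of both groups the r was 0.597 with Yp2 and 0.738 with Yp3 (exact permutation p = 0.0298, adjusted p = 0.0695 over 8 lines) and -0.474 with yl. The difference between the groups without those arrays was -0.36 for Yp3 (unadjusted p = 0.00683 from limma), -0.28 for Yp2 (unadjusted p = 0.0724), -0.10 for Yp1 and 0.044 for yl. In those 8 lines the 3' excess itself lay mostly lower in the selected lines (1.43 to 1.74) than in the control lines (1.72 to 1.93). Its part in these differences was not tested.

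Eggshell genes are made by the follicle cells that surround the oocyte. All 7 measured chorion genes, which encode the outer eggshell, had lower means in the selected lines and an unadjusted p under 0.05, as did 3.97% of all features. Their median difference was -0.62, against 0.0075 over all features. Cp19 averaged 13.50 ± 0.20 and 12.58 ± 0.54, and Cp16 11.60 ± 0.16 and 10.65 ± 0.64 in the control and selected lines (SD, n = 5 each). Of 10 genes of the vitelline membrane, the inner eggshell layer, and its patterning and crosslinking, all had lower means and 2 had an unadjusted p under 0.05. The median was -0.56, and the 2 were ndl (-0.86 ± 0.26, SE), a follicle cell protease that takes part in patterning the embryo, and yellow-g2 (-0.53 ± 0.19). The adjusted p of these 4 genes from limma lay between 0.240 and 0.392.

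The mean chorion level correlated with Yp2 at an r of 0.856 (permutation p = 0.00176, adjusted p = 0.0123, rho = 0.794, p = 0.00806) and with Yp3 at 0.823 (permutation p = 0.00293, adjusted p = 0.0137, rho = 0.939, p = 0.000240). Without the farthest lines, control line 2 and selected line 3, r was 0.689 and 0.722. With each group centred on its own mean, r was 0.764 for Yp2 (exact permutation p = 0.0357, adjusted p = 0.125) and 0.542 for Yp3 (exact permutation p = 0.196, adjusted p = 0.393), so neither passed within the groups. It was 0.335 for Yp1 (permutation p = 0.342, rho = 0.527, p = 0.122, 0.013 without the farthest lines) and -0.165 for yl (permutation p = 0.651, rho = 0.055, p = 0.893, -0.178 without them). Selected line 3, the lowest in Yp2 and Yp3, was also the lowest in the mean of the chorion list (-0.92 with each gene centred over the arrays) and of the vitelline membrane list (-1.004). Selected line 5, the highest in Yp2, was within the control range in the vitelline membrane list (0.37) and below it in the chorion list (-0.086, against 0.026 to 0.48). The part of ovary content in the yolk protein values was not tested.

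**Figure D4:**
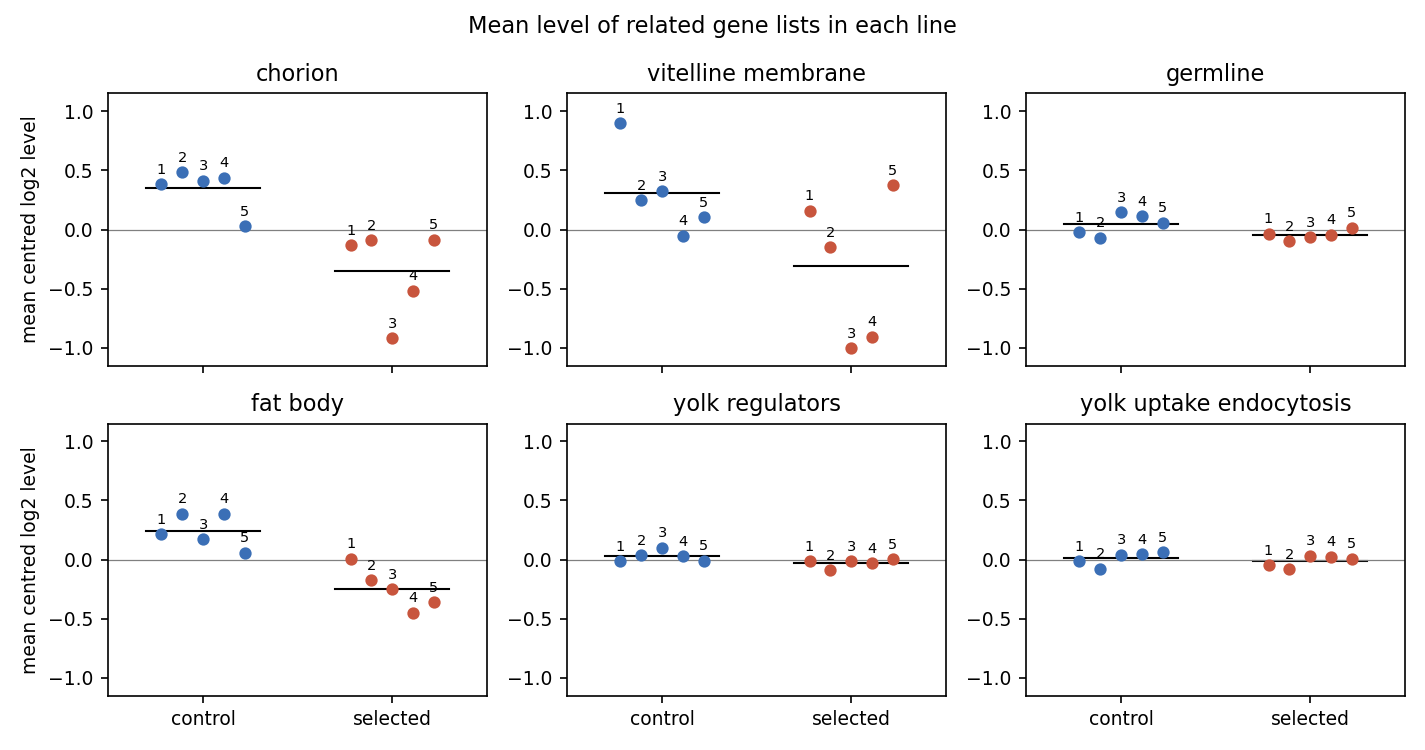
Mean over the genes of a list of the log2 level, each gene centred on its mean over the 10 arrays, in each line. Points are lines with their numbers and bars are group means. Chorion and fat body lists have every selected line below every control line. In the fat body list Lsp2 (-3.49) weighs heavily in the mean, and the list without it was not tested. The regulator and uptake lists lie close to 0 in both groups. Below every control line lie 3 selected lines in the regulator list and 1 in the uptake list.

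Of 18 germline genes other than yl, 14 had lower means, against 46.3% of all features, with a median of -0.088. A lower mean at an unadjusted p under 0.05 from limma was found for 2 of them, against 3.97% of all features. These were the cell cycle gene CycE (-0.38 ± 0.093, SE) and vas (-0.18 ± 0.075), which encodes an RNA helicase of the germ plasm. Their adjusted p from limma was 0.240 and 0.495. The germline list ran from -0.069 to 0.15 in the control lines and from -0.097 to 0.015 in the selected lines.

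The fat body is the other source of yolk protein. Of 10 measured fat body genes 8 had lower means, against 46.3% of all features, with a median of -0.15. A lower mean at an unadjusted p under 0.05 from limma was found for 4 of them, against 3.97% of all features. The median was -0.24 without selected line 1 and -0.25 over the members above a log2 level of 5 on at least 5 arrays. The 4 were the storage protein gene Lsp2 (-3.49 ± 0.55, SE), the triglyceride lipase gene bmm (-0.27 ± 0.078), Mtp (-0.28 ± 0.10), which loads lipid onto lipoproteins, and the iron carrier gene Tsf1 (-0.71 ± 0.31). All had an adjusted p from limma of 0.232 or more. The mean of the list was lower in every selected line (-0.45 to 0.0075) than in every control line (0.059 to 0.39), and selected line 5, where Yp2 was highest, stood at -0.36. Genes enter this mean unscaled, so Lsp2 (-3.49) weighs heavily in it, against a list median of -0.15. Whether the groups stay apart without Lsp2 was not tested.

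Among 14 measured regulators of yolk protein genes and of female differentiation, 6 had lower and 8 higher means, and the median was 0.0061. Over all features, 46.3% had a lower mean, and 3.97% had one with an unadjusted p under 0.05 from limma. An unadjusted p under 0.05 from limma was found for the GATA factor gene srp, from 7.69 ± 0.20 to 7.05 ± 0.55 (SD, n = 5 each, adjusted p = 0.385), and for the splicing factor gene tra2 of the sex determination pathway (-0.17 ± 0.075, SE, adjusted p = 0.503). The level of srp was below every control line in 4 selected lines. At least 4 such lines were found for 1 of the 14 regulators and for 3.3% of all features. Aef1, which encodes a repressor that acts on fat body enhancers, differed by -0.16 ± 0.087, and tra, which sets the female form of Doublesex, by 0.18 ± 0.11 (SE).

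The oocyte takes up yolk through coated pits and sorts it in endosomes. Of 14 measured genes of endocytosis and receptor transport, 11 had lower and 3 higher means, where 46.3% of all features had lower ones. The median was -0.034, and 0 had an unadjusted p under 0.05 in limma. The member with the smallest p was jagn (-0.13 ± 0.10, SE), which is needed for membrane traffic in the growing oocyte. Hrs, an endosomal sorting gene, differed by -0.082 ± 0.073, the dynamin gene shi by 0.096 ± 0.087 and the clathrin light chain gene Clc by -0.065 ± 0.079. Of 4 genes that sulphate or digest yolk, the cathepsin gene CtsB differed by 0.092 ± 0.082, the sulphotransferase gene Tpst by -0.047 ± 0.15, cathD by 0.0053 ± 0.070 and CtsL1 by -0.00038 ± 0.067 (SE). None of the 4 had an unadjusted p under 0.05.

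Relatives of yl and the lipoproteins had a median of -0.064 over 5 measured genes. Leaving out control line 1, 2, 4 or 5 moved it to -0.16, -0.19, -0.18 or 0.012, and leaving out selected line 1, 4 or 5 moved it to -0.14, -0.14 or -0.13, so no direction is given for the list. The receptor gene LpR1 differed by 0.17 ± 0.16, and apolpp, the main lipid carrier of the hemolymph, by -0.24 ± 0.16 (SE). Mtp, also counted in the fat body list, was the 1 with an unadjusted p under 0.05. In 7 genes of insulin signalling, which paces egg production with feeding, 0 had an unadjusted p under 0.05 in limma and the median was 0.045, led by chico (0.14 ± 0.099, SE). With 1 line left out, the median ran from 0.0034 to 0.094 for insulin signalling, from -0.031 to 0.028 for the regulators, from -0.044 to 6.63e-05 for uptake and from -0.0099 to 0.031 for the genes that sulphate or digest yolk. Transcripts of other tissues had higher means: all 12 muscle genes did (median 0.91, 10 with an unadjusted p under 0.05) and all 12 genes of the head and nervous system did (median 0.57, 9 with an unadjusted p under 0.05). Over all features, 46.3% had a lower mean, and 5.55% had a higher mean with an unadjusted p under 0.05 from limma. The mean of the muscle list ran from -1.41 to 0.028 in the control lines and from -0.36 to 0.92 in the selected lines. Its part in the yolk protein values was not tested.

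The genes with the most similar pattern over the 10 lines were sought among all features with a single gene name, by Pearson's r, as a description. For Yp2 they were Yp3 (0.931), the proteasome gene Rpt4 (0.923), CG7298 (0.912), the chorion gene Cp15 (0.911) and the aspartate aminotransferase gene Got1 (0.898). For Yp3 they were pum (0.938), which encodes a translational repressor, Yp2 (0.931), Rpt4 (0.913), l(2)gd1 (0.907) and Got1 (0.884). Yp2 and Yp3 thus shared Rpt4 and Got1, and each stood in the other's list, while Yp1 stood in neither. With each group centred on its own mean, r of Rpt4 was 0.880 with Yp2 and 0.888 with Yp3. At the other end stood CG18324, at -0.923 with Yp2 and -0.957 with Yp3.

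For Yp1 the most similar genes were CG15283 (0.948), Taf5 (0.939), gb (0.935), CG13690 (0.927) and Socs44A (0.920), and the least similar was the antifungal peptide gene Drs (-0.935). For yl they were wdn (0.929), CG12499 (0.924), Axud1 (0.922), the chromatin remodelling gene Chd1 (0.921) and the germ plasm gene tud (0.919), and the least similar was CtsF (-0.939). Of the 5 genes nearest to each, 1 for Yp2 (Cp15) and 1 for yl (tud) were in the lists described above, and none of those nearest to Yp1 or Yp3 was. The median r with chorion genes was 0.82 for Yp2, 0.71 for Yp3, 0.34 for Yp1 and -0.18 for yl, where the median over all genes was 0.037, 0.14, 0.26 and 0.21. With muscle genes it was -0.70, -0.83, -0.41 and 0.040. Of the 12 lists, Yp1 and yl had their highest median r with the male tissue list (0.73 and 0.61 over 9 genes). Of those 9 genes 9 had higher means, with a median difference of 0.033 (-0.030 to 0.064 with 1 line left out) and 0 at an unadjusted p under 0.05 in limma, and 2 averaged no more than the brightest value of a probe set for another organism. Over all features, 46.3% had a lower mean.

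All 4 genes lie on the X chromosome. Of 1564 X-linked features 52 (3.32%) had an unadjusted p under 0.05 and a lower mean in the selected lines, against 3.97% of all features. The 3 nearest measured genes on either side of each gene gave 18 neighbours other than the yolk genes. Of these 6 had lower and 12 higher means, where 46.3% of all features had lower ones. Their differences ran from -0.15 to 0.12, with a smallest unadjusted p of 0.178 from limma. On either side of the pair Yp2 and Yp1, Cht6 differed by 0.045 ± 0.092 and CG15312 by 0.093 ± 0.11 (SE), and beside Yp3, Rtc1 differed by -0.084 ± 0.079 and rdgB by -0.057 ± 0.19. None of the 18 had an unadjusted p under 0.05.

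**Figure D5:**
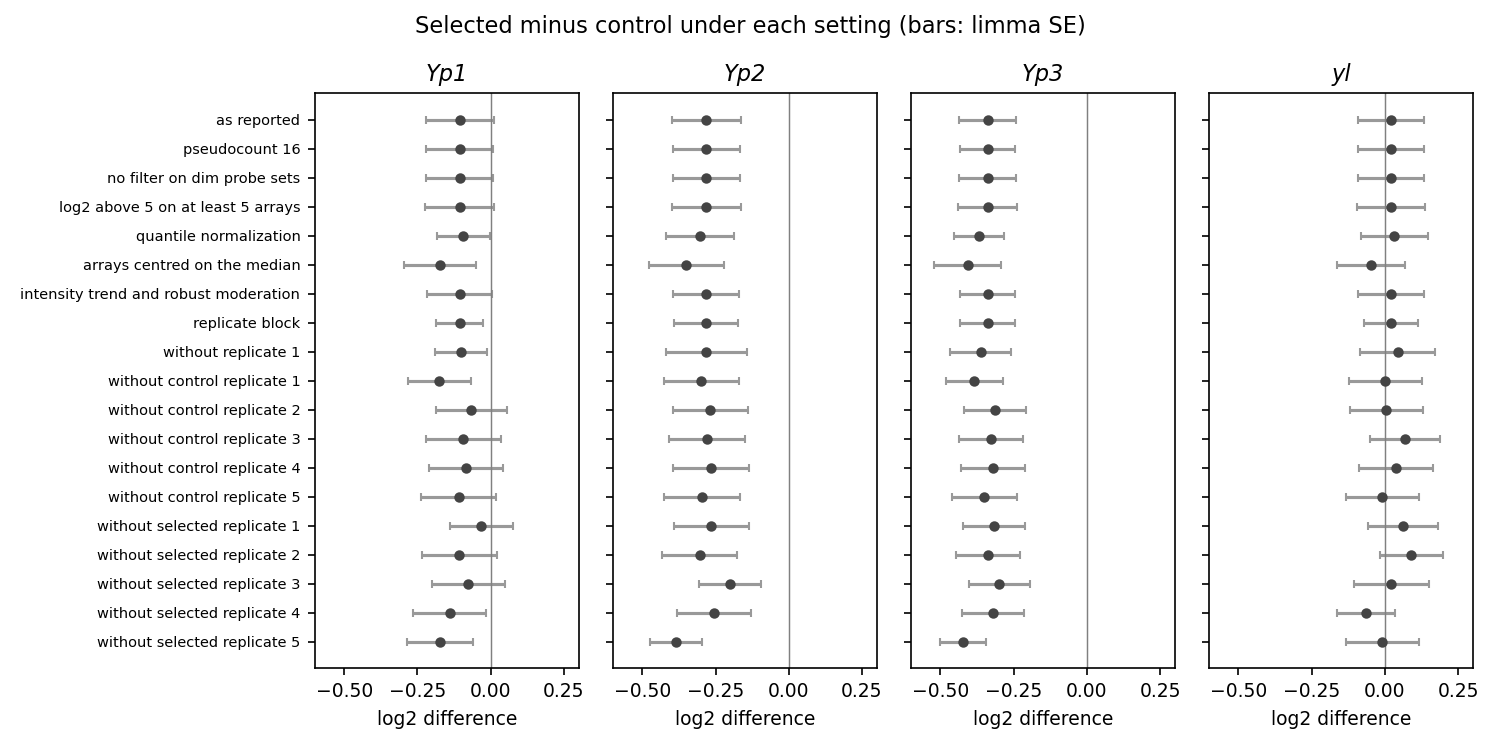
Log2 difference, selected minus control, of each transcript as reported and under each alternative setting, with limma's SE. Yp2 and Yp3 lie below 0 in every setting, Yp1 lies below 0 but nearer to it, and yl lies on both sides of 0.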

How the data were processed

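Total RNA of whole adult females was hybridised to 1 array per line (5 control and 5 heat-selected lines, grouped by sample title). The deposited values are intensities on a linear scale that the authors made with GCRMA, per the submitters' processing notes. The sources used here give no version of it. GCRMA scales arrays to one another, which takes the bulk of transcripts as equal between them. Probe sets were named from the platform annotation (1 gene for 12444, several for 327, none for 1239), with names and gene order from RefSeq (Release 6 plus ISO1 MT). No coordinates are printed.

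Values were taken as log2(intensity + 1). Features had to exceed 3 on at least 5 of 10 arrays, the 44 control probe sets were left out, and the brightest probe set stood for a gene, which left 10961. All 4 yolk genes passed. The comparison of the groups used limma 3.58.1 under R 4.3.3 (two-sided, Benjamini-Hochberg over all features, threshold 0.05). Ratios of 2 genes were compared in exact permutation tests over 252 labelings, and correlations with 100000 permutations (scipy 1.17.1). The number of arrays limits the precision. A trial of this comparison used simulated data with 10961 features. Of these, 200 were given a difference, and the noise was normal and independent between features. Here limma recovered 77.6% of 1.5-fold, 91.0% of 2-fold and 100% of 4-fold changes, with 11 false calls. Smaller folds were not tried, so recovery of differences of the size of Yp3 (fold 0.791) and Yp2 (fold 0.823) was not tested. Recovery also depends on how many features are given a difference, and noise shared between features was not simulated. On the arrays themselves, 0 of 10961 features were called, and Lsp2 at -3.49 had an adjusted p of 0.232 from limma. The rates of the trial are thus not rates for these arrays.

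The genes and the 12 lists (173 entries, 40 without a single-gene probe set under that symbol) were chosen with earlier results of these data known. Named were the 4 yolk genes, the 4 smallest p of each list, the 5 most and 2 least similar genes and the nearest neighbours, of which the text gives a part. Cp15 is named as a similar gene. Alternatives covered the pseudocount, filter, normalization, moderation, the line number as a block and each line left out.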

Additional observations from a re-analysis of the deposited data

Results flagged for a closer look

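In 46 groups of 5 lines looked at, 4 held a line far from the others of its group, where chance gives about 1 in 20. The log2 level of Yp2 minus that of Yp1 was -0.493 in control line 1, against -0.809 to -0.723 in the other control lines. The log2 level of Yp3 minus that of Yp2 was -0.0683 in the same line, against 0.0579 to 0.0895 in the others. Control line 1 also had the largest 3' excess of the control lines (2.27), and its part in these ratios was not tested. Without that line the difference between the groups in Yp2 minus Yp1 was -0.12, against -0.18 with it, and that in Yp3 minus Yp2 was -0.086, against -0.058. The mean of the chorion list was 0.0259 in control line 5, against 0.384 to 0.484 in the other control lines. The 3' excess was 2.76 in selected line 1, against 1.43 to 1.74 in the other selected lines.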

How the results depend on the processing

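Under 19 alternatives each, Yp1, Yp2 and Yp3 kept a lower mean in the selected lines, with no adjusted p under 0.05 from limma. With 1 line left out, the difference ran from -0.18 to -0.033 for Yp1, -0.38 to -0.20 for Yp2, -0.42 to -0.30 for Yp3 and -0.063 to 0.090 for yl. The exact permutation test, not adjusted, gave p = 0.0238 for the -0.34 of Yp3 and p = 0.0556 for Yp2. The difference of yl was reversed to -0.047 with arrays centred on the median, -0.0089 without control line 5, -0.063 without selected line 4 and -0.0085 without selected line 5.

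The count of features at an adjusted p under 0.05 was 0, and 0 to 3 with 1 line left out (3 without control line 5, 1 without selected line 2). Features at an unadjusted p under 0.05 became 850 lower and 400 higher with arrays centred on the median. The ratios of 2 genes stayed above an adjusted p of 0.05 in all 15 alternatives each, with the change of Yp3 minus Yp1 between -0.28 and -0.18 and that of yl minus Yp3 between 0.26 and 0.43 with 1 line left out. The r of Yp1 with Yp3 passed with groups centred (0.807). Without line 1 of both groups the r of Yp1 with Yp2 (0.841) and with Yp3 (0.797) passed, those of yl with Yp2 (-0.086) and Yp3 (-0.028) were reversed, and those of the 3' excess with Yp1 (0.312), Yp2 (0.597) and Yp3 (0.738) were reversed. Same-numbered lines correlated in their deviations at 0.547, 0.214, 0.195, 0.354 and 0.027. In 4 of 5 pairs this was above 0.1, and since line 5 was not and the labels name no shared origin, the fit without the block was kept. Control lines 1, 2 and 4 correlated best with the selected line of their own number. Control line 3 did so with selected line 5 (0.428) and control line 5 with selected line 3 (0.269). In the same-numbered pairs, Yp3 minus Yp1 was lower and yl minus Yp1, minus Yp2 and minus Yp3 were higher in the selected line in 5 of 5. An exact sign-flip test with this replicate block gave p = 0.0625 for each of the 4 ratios, the smallest it can give, and an adjusted p of 0.0938. With the line number as a replicate block, 2 features passed at an adjusted p under 0.05, 684 were lower at an unadjusted p under 0.05, and the differences of -0.11, -0.28, -0.34 and 0.021 for Yp1, Yp2, Yp3 and yl did not pass. No gene had another probe set to try. The causes were not tested. The medians of the lists and the tests of the 3' excess and chorion relations under other settings were added after seeing the data. The deposited values give no signal over background for single probe sets. All 4 genes lay far above 3.64, the highest single value of probe sets for other organisms, with yl lowest at 10.30. An upper limit of the signal on these bright transcripts was not measured.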
